A study of Mus musculus with 6 samples.

Results

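The major urinary protein genes Mup3, Mup4, Mup5, Mup20 and Mup21 were examined in mouse liver. A row of the array table was taken for a gene where the platform annotation gave its symbol. This found 4 rows for 4 of the 5 genes (Mup3, Mup5, Mup20 and Mup21) among 28996 rows, and Mup4 was not analysed here. None of the 4 rows was shared with another symbol, and 0 rows of the table carried several Mup symbols. Livers came from 4 mice of genotype Pcyt2+/- (replicates 1 to 4) and from 2 wild type mice (replicates 3 and 4), all of C57BL6 background and 2 months old, with 1 Affymetrix array for each mouse. The sample titles call the Pcyt2+/- mice knock-out, and the genotype field is followed here. The labels used here do not give the sex or feeding state of the mice, nor the part of Pcyt2 that was altered. Values are log2 expression per probe set as the authors deposited them.

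Major urinary proteins are small secreted lipocalins that carry volatile odorants in a central pocket. In mice they are made in large amounts by hepatocytes, released into the blood and passed into urine, where they act in scent communication. Their transcription in liver is known to respond to growth hormone pulses, androgens, thyroid hormone and glucocorticoids, and is commonly higher in males. Mup20, also named darcin, is the male pheromone protein that attracts females. Mup3 is likewise a liver gene, while Mup4 and Mup5 are known from secretory glands of the head.

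In the RefSeq table of assembly GRCm38.p6 the family filled 1 stretch of chromosome 4 with 22 coding genes, chr4:59956804-62150841, between Slc46a2 and Zfp37, and 24 entries were named as Mup pseudogenes. The 4 genes with a row stood together at the end next to Zfp37: Mup5 was gene 19 in order, Mup20 gene 20, Mup3 gene 21 and Mup21 gene 22. Mup4 was gene 1 at the other end and Mup6 gene 2. Mup6 was the 1 gene of the 20 symbols listed as other Mup genes that had a row of its own name. Members of this family are known to resemble one another in sequence, so a probe set named for 1 of them may also take up transcript of its relatives, which these summarised values cannot separate.

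The bases before the RefSeq starts of Mup3 and Mup21 are shown because these neighbours lay far apart in signal, and that of Mup6 as a bright relative from the other end of the stretch. Each is 250 bases long, on GRCm38.p6 and credited to RefSeq, at chr4:62087318-62087567 on the minus strand (Mup3), chr4:62150842-62151091 on the minus strand (Mup21) and chr4:60003231-60003480 on the plus strand (Mup6). Capitals mark the TATATAA stretch.
Mup3: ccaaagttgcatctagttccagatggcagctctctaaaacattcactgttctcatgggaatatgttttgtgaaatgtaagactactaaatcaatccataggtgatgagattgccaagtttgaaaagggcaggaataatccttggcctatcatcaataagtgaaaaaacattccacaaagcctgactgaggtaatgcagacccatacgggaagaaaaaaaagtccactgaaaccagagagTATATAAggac
Mup21: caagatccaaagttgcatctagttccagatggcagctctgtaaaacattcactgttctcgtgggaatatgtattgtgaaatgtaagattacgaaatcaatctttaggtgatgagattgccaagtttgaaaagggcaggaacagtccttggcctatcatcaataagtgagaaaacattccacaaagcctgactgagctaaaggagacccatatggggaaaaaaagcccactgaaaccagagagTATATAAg
Mup6: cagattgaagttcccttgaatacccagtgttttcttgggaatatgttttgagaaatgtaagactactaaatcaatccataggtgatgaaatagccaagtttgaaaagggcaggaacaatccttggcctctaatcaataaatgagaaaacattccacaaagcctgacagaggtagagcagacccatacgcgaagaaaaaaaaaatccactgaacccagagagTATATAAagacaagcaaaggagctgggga

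Mup3 and Mup21 were identical at 229 of 244 aligned bases (93.9%), and Mup3 and Mup6 at 204 of 231 (88.3%). TATATAA, a motif chosen after the sequences were seen, was in each of the 4 Mup windows at hand (Mup3, Mup4, Mup6 and Mup21), against 3.04% of 32851 windows of the same length. No window was at hand for Mup5 and Mup20. It lay 11 to 5 bases before the annotated start in Mup3, 8 to 2 bases before it in Mup21 and 29 to 23 bases before it in Mup6. On both strands, the letters TGTTCT, a motif of the glucocorticoid receptor, had 1 match in Mup3 and 1 in Mup21 (16.1% of all windows). No match was found in the 4 windows for TTCNNNGAA (STAT5, 7.02% of all windows), TTGCNNAA (C/EBP, 9.56%), GTTAAT (HNF1, 6.43%) or CCAAT (33.8%), which says only that these letters are not in these windows. TATAAA was found in Mup4 and Mup6, overlapping TATATAA there, and in 12.4% of all windows.

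Mup20 and Mup3 gave some of the brightest signals of the liver arrays, whereas Mup5 and Mup21 lay much lower, yet above most rows. The mean of Mup20 over the 6 arrays was 11.51, place 33 of 28996, and on single arrays its place ran from 29 to 40. The mean of Mup3 was 11.09, place 40, with 39 to 48 on single arrays. Mup6 lay between them at 11.26, place 38. The highest value on any array was 13.02, so the mean of Mup20 was 1.51 and that of Mup3 was 1.93 below the top of the scale. Of all rows, 48 had a mean above 11 and 98 (0.338%) a mean above 10.

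Rows with 1 symbol at that end were mostly those of abundant RNAs and plasma proteins. Alb, the main plasma protein, had 12.27 in Pcyt2+/- and 12.32 in wild type, and stood at place 20. Apoe and Apoa1, which are lipoprotein proteins, stood at places 35 and 39, around Mup20, Mup6 and Mup3. A place gives the order of signals and not of transcript amounts, since probe sets differ in how strongly they bind.

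The mean of Mup5 was 5.24 (place 1163) and that of Mup21 was 4.88 (place 2042), while the array medians lay at 4.40 on every array. For Mup5 4.01% of rows were brighter, and for Mup21 7.04%. Whether transcripts of brighter relatives add to these signals was not tested.

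**Figure D1:**
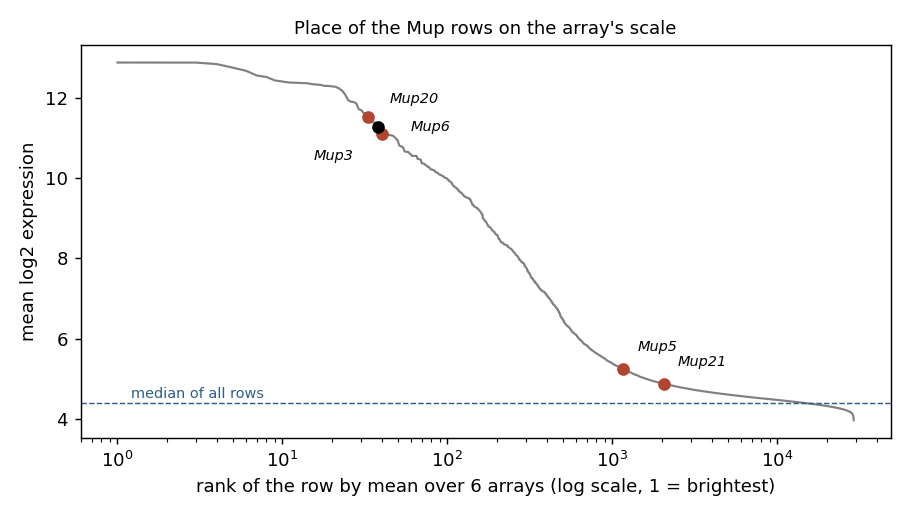
Mean log2 expression over 6 arrays (vertical) of every row against its rank by that mean (horizontal, log scale). Mup20 (11.51), Mup6 (11.26, black) and Mup3 (11.09) sit at places 33, 38 and 40, while Mup5 (5.24) and Mup21 (4.88) sit at places 1163 and 2042, above the dashed median of all rows (4.40).

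Pcyt2 encodes an enzyme of phosphatidylethanolamine synthesis, and the question here was whether Mup signals differ in livers of Pcyt2+/- mice. None of the 4 Mup rows differed between the genotypes beyond the spread between mice. Limma called 0 of 4 at an adjusted p under 0.05, and 0 of 4 had an unadjusted p under 0.05. Over the whole table limma called 0 of 28996 rows (0%), with 1452 rows (5.01%) at an unadjusted p under 0.05, made up of 1.93% higher and 3.08% lower in Pcyt2+/-. The means of 3 of the 4 Mup rows were higher in Pcyt2+/- (50.1% of all rows). Their median difference was 0.054, against 0 over all rows and -0.041 over the 98 rows with a mean above 10, and it turned to -0.027 without wild type replicate 3. It was 0.093 without wild type replicate 4, 0.027 without Pcyt2+/- replicate 4 and 0.15 with the array median subtracted on the linear scale. The values of the genotypes overlapped for all 4 Mup rows. Of all rows 12.9% did not overlap, 6.23% with Pcyt2+/- higher and 6.72% with it lower, so overlap in 4 rows does not set the Mup rows apart. In whole liver, fewer cells that make a transcript and less of it in each cell cannot be told apart.

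Mup20, the pheromone protein, had log2 values of 11.55, 11.37, 11.61 and 11.72 in Pcyt2+/- replicates 1 to 4, against 11.18 and 11.64 in wild type replicates 3 and 4. All 4 Pcyt2+/- values lay above wild type replicate 3, and 1 of them above wild type replicate 4. The group means were 11.56 ± 0.15 (SD, n = 4) in Pcyt2+/- and 11.41 ± 0.33 (SD, n = 2) in wild type. They differed by 0.15 (SE 0.14, 95% interval -0.19 to 0.50), or 1.11-fold (0.876 to 1.41) on the linear scale (limma adjusted p = 0.965). That SE is drawn toward a prior from all rows, so the interval is narrower than the spread of Mup20 alone (pooled SD 0.21) would give. A two-sided exact permutation of the genotype labels, with 15 possible splits, gave p = 0.533, and 4 against 2 arrays cannot reach less than 0.0667.

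The direction of Mup20 rested on 1 wild type array. Without wild type replicate 3 the difference was -0.081, and without wild type replicate 4 it was 0.39 (limma adjusted p = 0.753). Leaving out Pcyt2+/- replicate 4 gave 0.10. The wild type arrays were 0.47 apart, more than the range of 0.35 over the 4 Pcyt2+/- arrays. That gap was wider than the gap of each of the 23 other rows whose mean lay within 0.5 of that of Mup20.

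Mup3, the other bright liver gene, had 11.12, 11.08, 11.07 and 11.10 in Pcyt2+/- replicates 1 to 4, against 11.03 and 11.16 in wild type replicates 3 and 4. The 4 Pcyt2+/- values lay between the pair of wild type values. The means were 11.09 ± 0.022 (SD, n = 4) in Pcyt2+/- and 11.10 ± 0.090 (SD, n = 2) in wild type, differing by -0.0054 (SE 0.034, 95% interval -0.088 to 0.077, limma adjusted p = 0.998). On the linear scale the ratio was 0.996 (0.941 to 1.06), and the exact permutation p was 0.933. Its sign depended on the setting: the difference was 0.026 after quantile normalization, 0.013 after centring on rows with a mean above 10, 0.0023 without Pcyt2+/- replicate 3, and, where a single wild type array was kept, -0.069 with replicate 3 left out and 0.058 with replicate 4 left out.

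Mup5 had 5.21, 5.22, 5.25 and 5.37 in Pcyt2+/- replicates 1 to 4, against 5.15 and 5.25 in wild type replicates 3 and 4. Pcyt2+/- replicate 4 was the high value, and the other three lay close to wild type replicate 4 or just below it. The means were 5.26 ± 0.073 (SD, n = 4) in Pcyt2+/- and 5.20 ± 0.066 (SD, n = 2) in wild type, differing by 0.061 (SE 0.050, 95% interval -0.059 to 0.18, limma adjusted p = 0.959, exact permutation p = 0.467). The difference was 0.014 without wild type replicate 3 and 0.025 without Pcyt2+/- replicate 4.

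Mup21 had 4.86, 4.89, 4.88 and 4.95 in Pcyt2+/- replicates 1 to 4, against 4.81 and 4.88 in wild type replicates 3 and 4. All Pcyt2+/- values lay above wild type replicate 3, and wild type replicate 4 lay among them. Mup21 averaged 4.89 ± 0.041 (SD, n = 4) in Pcyt2+/- and 4.85 ± 0.045 (SD, n = 2) in wild type, differing by 0.048 (SE 0.030, 95% interval -0.024 to 0.12, limma adjusted p = 0.959, exact permutation p = 0.4). The difference was 0.016 without wild type replicate 3 and 0.029 without Pcyt2+/- replicate 4. A log2 difference understates a change where a floor is part of a dim signal. With each array's median subtracted on the linear scale, the difference was 0.17 for Mup21 and 0.14 for Mup5, and neither passed.

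**Figure D2:**
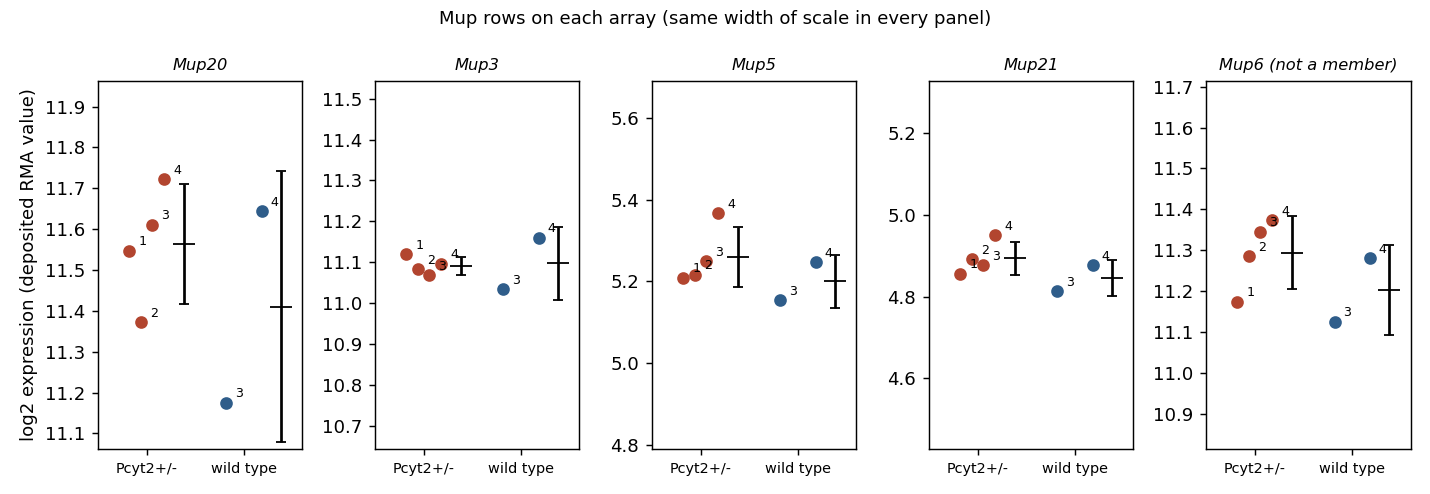
Deposited log2 expression of each Mup row on each array (points, numbered by replicate), with Pcyt2+/- left and wild type right; black marks are the group mean ± SD (n = 4 and n = 2), and every panel spans the same width of scale. The genotypes overlap in each panel, and the widest gap is that between the wild type arrays for Mup20 (11.18 and 11.64).

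Mup6, from the other end of the stretch, had 11.17, 11.29, 11.35 and 11.37 in Pcyt2+/- replicates 1 to 4, against 11.12 and 11.28 in wild type replicates 3 and 4. Its values overlapped between the genotypes as well. The difference was 0.091 (SE 0.065, 95% interval -0.066 to 0.25, limma adjusted p = 0.959), and 0.013 without wild type replicate 3. The 95% limits of the ratio of Pcyt2+/- to wild type were 0.960 and 1.13 for Mup5, 0.984 and 1.09 for Mup21 and 0.956 and 1.19 for Mup6, on the scale of the deposited values, which includes the floor.

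**Figure D3:**
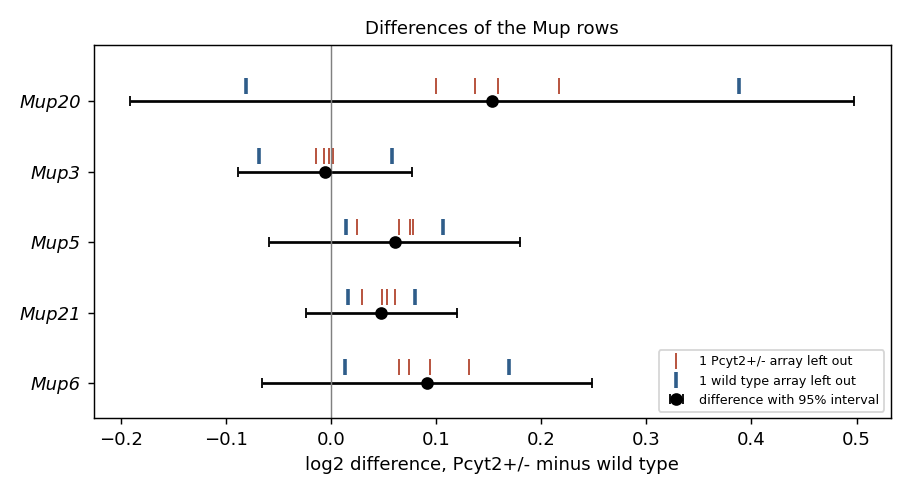
Log2 difference (Pcyt2+/- minus wild type, horizontal) of each Mup row, with its 95% interval from limma (black) and the values with 1 array left out (ticks above, red for a Pcyt2+/- array, blue for a wild type array). All 5 intervals hold 0, and the blue ticks of Mup20 lie at -0.081 and 0.39.

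Wild type replicate 3 gave the lowest value of all 6 arrays in each of the 4 member rows, and in that of Mup6. Over the whole table the lowest value was on that array in 13.1% of rows, and in 14.3% of those with a mean above 10. The highest value was on the array of Pcyt2+/- replicate 4 for Mup5, Mup20 and Mup21 (14.9% of all rows, and 35.7% of those with a mean above 10), and on that of wild type replicate 4 for Mup3. Rows of related genes may share transcripts and are not independent of one another. Once each row was centred on its own mean, Mup5 and Mup21 were the most alike pair of Mup rows, with a root mean square difference of 0.029 over the 6 arrays. Mup20 was 0.13 to 0.16 from every other Mup row. The measure is not scaled to the spread of a row, so it grows with that spread. The SD over the 6 arrays was 0.20 for Mup20, against 0.044 for Mup3 and 0.071 for Mup5. These distances therefore do not show that Mup20 had a different pattern.

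**Figure D4:**
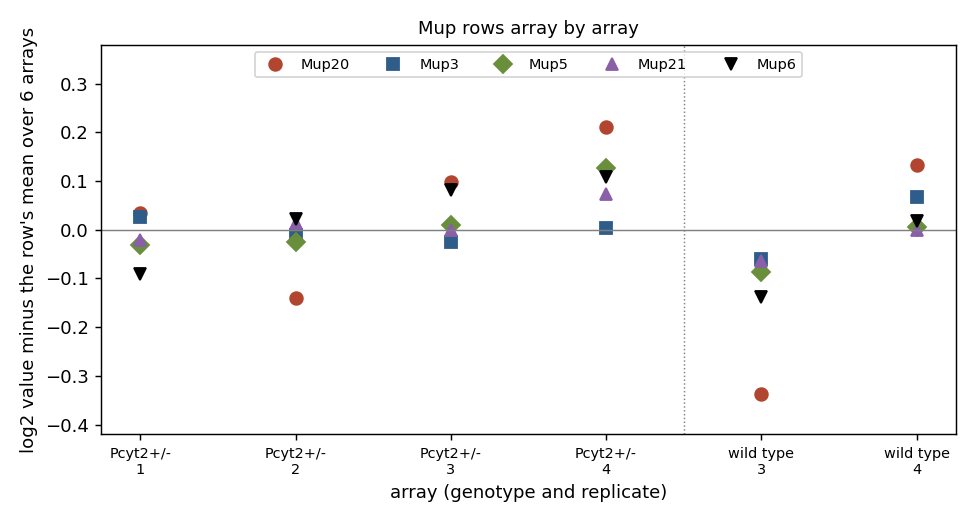
Log2 value of each Mup row minus its own mean over the 6 arrays (vertical), by array (horizontal, Pcyt2+/- left of the dotted line and wild type right of it). All 5 rows are below 0 on wild type replicate 3, where Mup20 reaches -0.34, and Mup20 also has the widest spread among the Pcyt2+/- arrays.

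Among rows with 1 symbol, a mean above 5 and enough spread, those nearest to Mup20 in this array profile were Trdn, which encodes triadin (root mean square difference 0.097), Fmo5, a flavin monooxygenase (0.10), and Hc, complement C5 (0.10), out of 432 rows. Nearest to Mup3 were both rows of Rpl7a, a ribosomal protein (0.017 and 0.019), and Bnip3l, a mitophagy receptor (0.020). Nearest to Mup5 were Mir345 (0.030), Lgals3bp (0.033) and Myo18b (0.037), and nearest to Mup6 were Marcksl1 (0.045), a second row of Trdn (0.048) and Dnajc17 (0.056). This likeness is a description over 6 arrays of rows that share the same libraries.

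Growth hormone acts on the liver through its receptor and STAT5, and is a well known input to Mup transcription. Of the 16 genes of that list 15 were measured, of which 0 rose, 0 fell and 15 did not pass limma over all rows, with 3 higher and 0 lower at an unadjusted p under 0.05. The median difference was 0.0051, against 0 over all rows, and became 0.037 when wild type replicate 3 was left out and -0.0083 when wild type replicate 4 was. The 3 were Socs2, a STAT5 target that damps the signal (0.17, 95% interval 0.10 to 0.24), Onecut1, a liver transcription factor (0.18, 0.072 to 0.29), and Ghr, the receptor itself (0.13, 0.048 to 0.21). Socs2 had 4.61 ± 0.030 (SD, n = 4) in Pcyt2+/- and 4.44 ± 0.056 (SD, n = 2) in wild type. Only 2 of the 15 measured genes had a mean above 5. Cish, another STAT5 target, differed by 0.073, Stat5b by 0.026 (-0.011 without wild type replicate 4) and Igf1, the hormone made in answer to growth hormone, by 0.00049, and no member of the list had an adjusted p below 0.485 by limma. With the array median subtracted on the linear scale the difference was 1.61 for Socs2, 0.84 for Cish, 0.71 for Onecut1 and 0.23 for Ghr, none of which passed. That step sets values at or just above the array median to a common low value. Socs2 on wild type replicate 4 was set to it, as was Cish on both wild type arrays and on Pcyt2+/- replicate 3. The values 1.61 and 0.84 are therefore not measured fold changes.

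Sex-biased liver genes share that hormonal input. Of 25 male-biased genes 22 were measured, of which 0 rose, 0 fell and 22 did not pass limma over all rows, with 5 higher and 1 lower at an unadjusted p under 0.05. The median difference was 0.015, but -0.027 without wild type replicate 3 and 0.18 without wild type replicate 4. By mean, 12 of the 22 were higher and 10 lower in Pcyt2+/-. The lower ones included Elovl3 (-0.36) and Cspg5 (-0.030), the 1 that was lower at an unadjusted p under 0.05 by limma. Hsd3b5, a steroid dehydrogenase of male liver, had 5.16 ± 0.085 (SD, n = 4) in Pcyt2+/- and 4.98 ± 0.096 (SD, n = 2) in wild type, a difference of 0.18. The related Hsd3b2 differed by 0.18, Keg1 by 0.25 and C8a, a complement subunit, by 0.066. With the array median subtracted these were 0.48 for Hsd3b5, 0.66 for Hsd3b2, 0.87 for Keg1 and 0.14 for C8a, none of which passed, and the deposited difference of Keg1 ran from 0.14 to 0.37 with 1 wild type array left out. Of 32 female-biased genes 22 were measured, of which 0 rose, 0 fell and 22 did not pass, with 0 higher and 2 lower at an unadjusted p under 0.05 (limma). These were Cyp4a14, a fatty acid hydroxylase (-2.56), and Cyp17a1, a steroid hydroxylase (-0.065). Cyp4a14 had 6.66 ± 0.39 (SD, n = 4) in Pcyt2+/- and 9.22 ± 0.19 (SD, n = 2) in wild type (limma adjusted p = 0.151). It passed limma among rows with a mean above 5 (adjusted p = 0.0443), with a trended and robust prior (0.0166), without Pcyt2+/- replicate 3 (0.0487) and after centring on bright rows. A mean above 5 was seen for 15 of the 22 male-biased genes and for 1 of the 22 female-biased genes, Cyp4a14. Xist and the Y-linked Eif2s3y, Kdm5d and Uty were dim on all arrays, with means from 4.20 to 4.37, so that these rows give no reading of sex.

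Regulators of Mup genes did not pass either. Of 22 listed genes 17 were measured, of which 0 rose, 0 fell and 17 did not pass limma, with 1 higher and 2 lower at an unadjusted p under 0.05. The median of -0.011 was 0.0029 without wild type replicate 3, 0.0075 after centring on bright rows and -0.12 with the array median subtracted on the linear scale. The subtraction sets values at or just above the array median to a common low value. Hnf4a, a master transcription factor of hepatocytes, had 7.36 ± 0.090 (SD, n = 4) in Pcyt2+/- and 7.61 ± 0.40 (SD, n = 2) in wild type, a difference of -0.25 that was 0.038 without wild type replicate 4. By mean, 5 of the 17 were higher and 12 lower in Pcyt2+/-. The higher ones included Onecut1 (0.18), the 1 that was higher at an unadjusted p under 0.05 by limma, and Xbp1 (0.22). Cebpa, which drives hepatocyte genes, differed by -0.082 and Ppargc1a, a coactivator of fasting genes, by -0.033. Zhx2, a repressor and regulator of liver genes that acts on Mup genes in mice, differed by -0.0044. Bcl6, which opposes STAT5, differed by -0.057 and Nr3c1, the glucocorticoid receptor, by -0.0085. Cux2, a female-biased repressor from the growth hormone list and not from this one, differed by -0.0078. Only 3 of the 17 measured regulators had a mean above 5. Zhx2 (mean 4.35), Nr3c1 (4.38) and Ppargc1a (4.33) lay below the array medians of 4.40, so these rows give little reading of change.

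Other lipocalins and neighbours of the Mup stretch gave similar counts. Of 19 lipocalin relatives and carriers 17 were measured, of which 0 rose, 0 fell and 17 did not pass limma, with 0 higher and 1 lower at an unadjusted p under 0.05 and a median of 0.0051 (-0.015 with the array median subtracted). The 1 was Rbp4, the plasma carrier of retinol and a bright lipocalin, with 10.73 ± 0.087 (SD, n = 4) in Pcyt2+/- and 10.99 ± 0.0097 (SD, n = 2) in wild type, a difference of -0.26 (limma adjusted p = 0.737). All 22 listed genes of the surrounding region were measured, and 0 rose, 0 fell and 22 did not pass limma, with 0 higher and 2 lower at an unadjusted p under 0.05 (Hdhd3 and Ptbp3). Their median was 0.0016, and ran from -0.0082 to 0.0028 with 1 array left out. Of 29 secreted hepatocyte proteins 25 were measured, of which 0 rose, 0 fell and 25 did not pass limma, with 1 higher (Fga, a fibrinogen chain, 0.072) and 2 lower (Apob, of VLDL particles, -0.17, and Rbp4) at an unadjusted p under 0.05. Their median was -0.036, and ran from -0.050 to -0.00098 with 1 array left out.

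The tissue label was borne out by hepatocyte markers, 12 of 12 of which had a mean above 5. Limma called 0 of them, with 0 higher and 2 lower at an unadjusted p under 0.05 (Cps1, -0.56, and Apob, -0.17). By mean, 4 of the 12 were higher and 8 lower in Pcyt2+/-, with a median difference of -0.051. Pck1 differed by -0.72. The summed level of the 12 markers ran from 14.17 to 14.24 in Pcyt2+/- and from 14.21 to 14.34 in wild type. That sum is set mostly by the brightest markers. Of 65 measured markers of 9 other cell types, red cells, glands and organs, 1 had a mean above 5 (5.55% of all rows). It was the fibroblast marker Dcn (5.07 in Pcyt2+/- and 5.11 in wild type). The 10 endothelial markers and the 10 Kupffer cell and macrophage markers were all among those below 5. This cutoff therefore cannot show that a cell type was absent. For red cells, 2 of 8 listed markers were measured. For skin, salivary and lacrimal gland, where head-gland Mup genes are made, 0 of 8 measured markers had a mean above 5, with summed levels of 7.38 to 7.39 in Pcyt2+/- and 7.39 to 7.40 in wild type. Pcyt2 itself had 4.64 ± 0.028 (SD, n = 4) in Pcyt2+/- and 4.84 ± 0.064 (SD, n = 2) in wild type, and all 4 Pcyt2+/- values were below both wild type values (limma adjusted p = 0.344). The difference was -0.20 as deposited and -0.97 with the array median subtracted on the linear scale (limma adjusted p = 0.265).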

How the data were processed

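The authors deposited log2 expression values per probe set for 6 liver arrays, made with RMA per the submitters' processing notes; neither the RMA version nor a build is given in the sources used here. RMA corrects background and normalizes arrays together, so a shift shared by all rows is removed. RNA was labelled from 100 ng of total RNA per the labels. The table held 28996 rows: 21218 with 1 gene symbol, 1881 with several and 5897 unnamed here. Arrays have no sequencing depth, and precision is limited by their number.

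Each difference was taken as Pcyt2+/- minus wild type. Every row was fitted without covariates on all 6 arrays by lmFit and eBayes (limma 3.58.1, R 4.3.3), two-sided, with Benjamini-Hochberg adjustment and a threshold of 0.05. P-values and intervals weigh a difference against the spread between these mice, drawn by limma toward a prior from all rows. The median pooled SD was 0.017 over all rows and 0.093 over rows with a mean above 10. The steps were tested on simulated data. Exact permutation tests covered the 15 splits of single Mup rows. A gene with several rows was represented by the brightest. Promoters came from RefSeq (GRCm38.p6) and were aligned with Biopython 1.88 (Python 3.11.15). For each list the text names genes that passed, otherwise up to 4 by smallest unadjusted p, and a set of regulators, 9 of 11 of which had a row. The genes and lists were chosen with earlier results of these data known. Alternatives were other rows, filters, scalings, priors, array weights, a replicate block, floor subtraction and leaving out each array.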

Additional observations from a re-analysis of the deposited data

How the results depend on the processing

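Limma called none of the Mup rows under any of the 16 alternatives, the filter on rows with a mean above 5 leaving out Mup21. The lowest adjusted p of a Mup row was 0.0779, for Mup20 after centring on rows with a mean above 10, where the prior gave every row the same spread. Mup5 and Mup21 kept their sign throughout. Mup3 turned to 0.026 after quantile normalization and to 0.013 after centring on bright rows. With 1 array left out, the differences ran from -0.069 to 0.058 for Mup3, from -0.081 to 0.39 for Mup20, from 0.014 to 0.11 for Mup5 and from 0.016 to 0.080 for Mup21. A fit with 1 wild type array assumes that it varies like the others. Numbers 3 and 4 occur in both genotypes, but deviations of same-numbered arrays correlated at 0.246 and 0.0080 over rows, so the numbers were not taken as pairs. With the replicate block the differences were -0.015 for Mup3, 0.11 for Mup5, 0.26 for Mup20 and 0.068 for Mup21, and limma called 0 rows. Among all rows, limma called 3 of those with a mean above 5, 236 after centring on bright rows (Pcyt2, Socs2, Hnf4a and Rbp4 among them) and 7 with a trended and robust prior, and 0 to 4 with 1 array left out. At an unadjusted p under 0.05 the counts were 118, 565 and 744 with the mean filter, bright centring and the floor subtracted (11874 rows, those constant at the floor left out), and 38.6% of calls were higher as deposited against 48.6% after quantile normalization. Groups did not overlap for 2417 genes in the 1-row-per-gene fit, 247 rows with a mean above 5, 1432 after bright centring, 1599 with the floor subtracted and 5496 to 11908 with 1 array left out. Fewer arrays separate more rows whatever the genotype, so that last range is no measure of robustness. Some regulators, growth hormone pathway genes and X and Y linked markers changed sign. Most were near 0 as deposited, but Hnf4a was at -0.25. Bright centring gave 0.011 for Cux2, 0.010 for Nr3c1, 0.010 for Uty, 0.014 for Zhx2 and 0.0048 for Eif2s3y. The block gave 0.0029 for Cux2, 0.0024 for Nr3c1 and -0.10 for Igf1, which was -0.0012 with the floor subtracted. With 1 array left out, the differences ran from -0.12 to 0.0037 for Bcl6, from -0.53 to 0.038 for Hnf4a, from -0.057 to 0.052 for Igf1, from -0.011 to 0.063 for Stat5b, from -0.0088 to 0.017 for Xist and from -0.018 to 0.0088 for Zhx2. Causes were not tested.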
